A study of Mus musculus with 6 samples.

Results

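The endoplasmic reticulum (ER) folding machinery and its unfolded protein response were examined in whole livers through 36 genes, chosen by name for their role, out of 24346 genes measured by RNA-seq. All 36 genes passed the filter on low values (a mean of at least 0.5 FPKM, fragments scaled by transcript length and by sequencing depth), as did 11956 genes of the table. They fell into 6 roles, namely 3 sensors and transcription factors, 9 chaperones of the HSP70 and HSP90 systems with their cofactors, 6 disulphide isomerases and oxidases, 3 genes of the glycoprotein folding cycle, 10 genes of ER-associated degradation and 5 genes of the translocon.

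The livers came from 6 male C57/BL6 mice aged 8 weeks, 3 with the sample label wt and 3 with the sample label med23 ko, and each library was 1 mouse. The study's description of the series names its groups med23f/f and med23Δli, and the wt livers were taken as med23f/f controls and the med23 ko livers as those labelled med23Δli. Every mouse, controls included, had received a single intraperitoneal dose of carbon tetrachloride (CCl4, 0.6 μl/g body weight in sunflower oil), a hepatotoxin activated by pericentral hepatocytes, and was examined 24 h later. In med23Δli mice the Cre recombinase driven by the Albumin promoter removes floxed *Med23*, which encodes a subunit of the Mediator complex, from hepatocytes, so the other cells of the liver keep the gene. The controls carry the floxed alleles without the deletion. No uninjured livers were analysed here, so the values compare 2 injured groups and give no response to CCl4 itself.

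Proteins destined for secretion or for membranes enter the ER through the translocon, fold there with the help of chaperones, disulphide isomerases and the calnexin cycle, and are returned to the cytosol for destruction when folding fails. The ER membrane sensors IRE1, ATF6 and PERK respond to unfolded protein, and IRE1 acts by splicing the mRNA of the transcription factor XBP1. ATF6 and spliced XBP1 drive transcription of chaperone and degradation genes through short promoter elements such as the ER stress response element, and hepatocytes, which secrete most plasma proteins, rely heavily on this system.

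The gene targeted by the Cre recombinase came first. The controls had 3.42, 2.97 and 4.14 FPKM of *Med23* (GRCm38, chr10:24869986-24913681), and the livers labelled med23Δli had 3.40, 3.40 and 2.91 FPKM. These ranges overlapped (log2 fold change -0.11, SE 0.17, adjusted p = 0.686 by limma with Benjamini-Hochberg adjustment, exact two-sided permutation p = 0.4, where 3 against 3 livers cannot go below 0.1). Whole-gene FPKM did not separate the groups, so every direction given here rests on the labels.

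Library facts that bear on the values were as follows. The med23Δli replicate 2 library stood apart through adipocyte transcripts, with *Adipoq* at 5.65, *Plin1* at 2.76 and *Cfd* at 23.8 FPKM against at most 0.0907, 0 and 0.244 FPKM in the other libraries. The 9 markers of liver endothelium summed to 115 to 155 FPKM in controls and 60.9 to 68.4 FPKM in livers labelled med23Δli, and 8 of the 9 fell, while 0 of 10 hepatocyte markers passed the test in either direction (limma, adjusted p under 0.05) and 3 were lower at an unadjusted p under 0.05. Markers of pericentral hepatocytes, which CCl4 injures, summed to 379 to 522.5 FPKM in controls and 799 to 959 FPKM in livers labelled med23Δli, and 3 of 7 rose (*Cyp2e1* 2.39-fold, *Cyp1a2* 3.07-fold and *Axin2* 1.96-fold). *Cyp2e1* was the largest part of that sum in every library, and *Rhbg* of the same list was lower in every liver labelled med23Δli (0.605-fold) without passing the test. Injury macrophage markers summed to 234 to 359 FPKM in controls and 511 to 565 FPKM in livers labelled med23Δli. Of these, 2 of 9 rose (*Lgals3*, from a mean of 80.9 to 268 FPKM, and *Gpnmb*) and 7 did not pass. Below 0 on the log2 scale were *Spp1* at -0.19, *Trem2* at -0.40, *Itgam* at -0.40 and *Ccr2* at -0.24. Above 0 were *Ly6c2* at 0.81, *Cd68* at 0.29 and *Lyz2* at 0.14. Of the stellate cell markers 3 of 10 fell (*Des*, *Ecm1* and *Colec11*), as did 1 of 9 Kupffer cell markers (*C1qa*). Of 14 pancreatic acinar genes 10 were at 0 in every library and *Cela1* was at 3.45 to 6.71 FPKM. Of the plasma cell and B cell genes *Mzb1* was at 0.0583 to 0.717 FPKM and *Sdc1*, which hepatocytes also express, at 68.6 to 131 FPKM. In whole liver, fewer cells of a type and less RNA per cell cannot be told apart, and the part of these marker differences in the results was not tested.

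The ER genes moved in both directions. Of the 36 genes, 6 rose (*Sec63*, *Atf6*, *Canx*, *Ern1*, *Edem2* and *Uggt1*), 6 fell (*Creld2*, *Syvn1*, *Herpud1*, *Pdia4*, *Sdf2l1* and *Hyou1*) and 24 did not pass the test (limma on log2(FPKM + 0.1), adjusted p under 0.05). Over all 11956 genes tested, 11.6% rose and 9.48% fell (21.1% in all), so the number of ER genes called was not far above the background and is given as a description. With quantile normalization the split was 4 higher and 9 lower, and that of all genes went from 1384 higher and 1133 lower to 1301 and 1351. Beyond 2-fold, 1 ER gene rose (*Sec63*, background 4.45%) and 3 fell (*Creld2*, *Herpud1* and *Syvn1*, background 3.45%). The median log2 fold change of the 36 genes was 0.17, beside 0.02 over all genes tested. It went from 0.08 with quantile normalization to 0.22 without control replicate 1, beside -0.02 and 0.05 over all genes in these settings. The 3 livers of a group all lay above those of the other group for 13 ER genes and all lay below for 8, against 23.3% and 20.4% of all genes tested (43.7% in all).

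**Figure D1:**
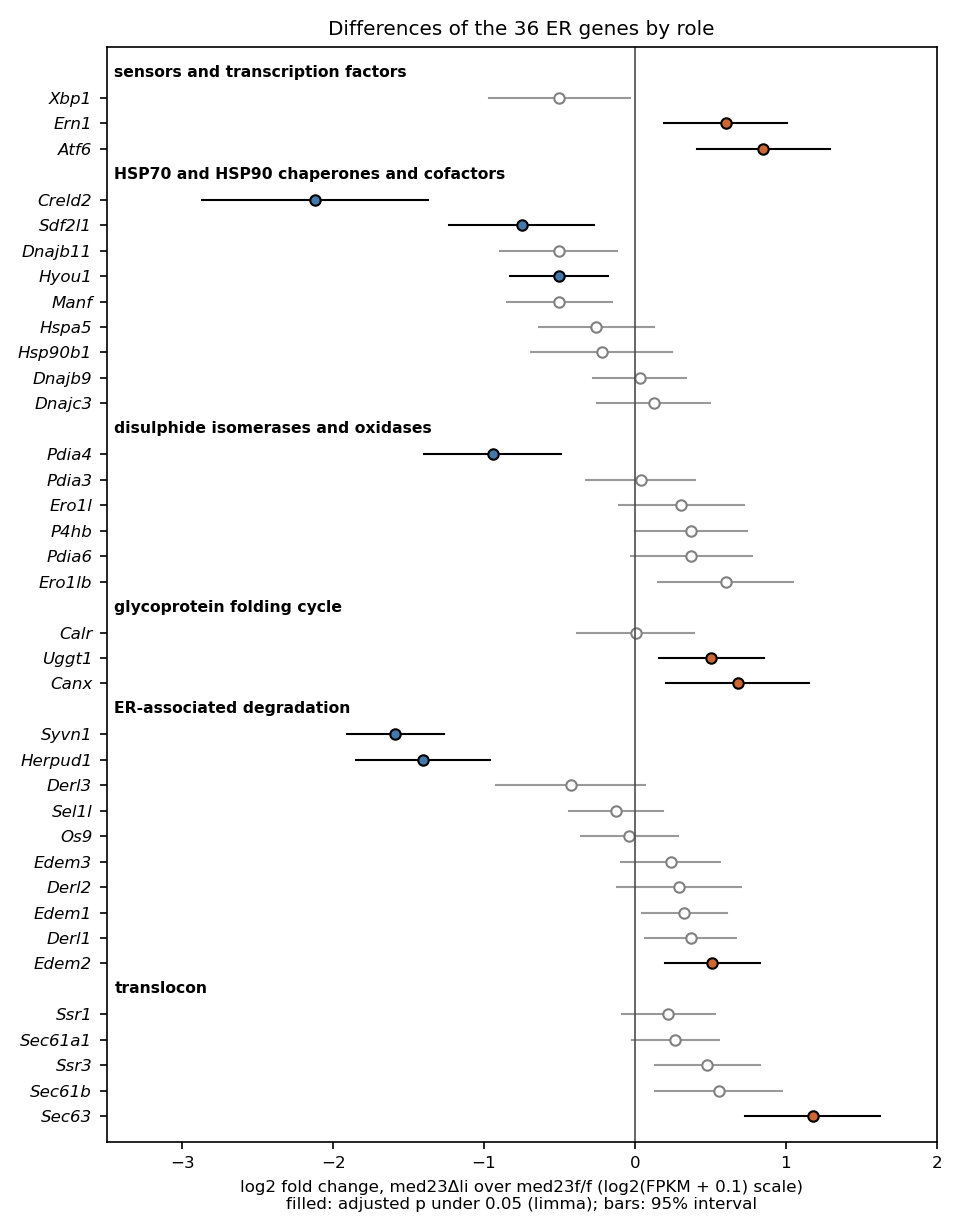
Log2 fold change of each of the 36 ER genes (med23Δli over med23f/f livers, n = 3 each, on the log2(FPKM + 0.1) scale), grouped by role, with its 95% interval and filled points for an adjusted p under 0.05 (blue lower, orange higher). *Creld2*, at -2.12, and *Sec63*, at 1.18, mark the ends of the range, and each role except the translocon, the sensors and the glycoprotein folding cycle holds a gene that fell.

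The members that moved most could be set beside their promoter sequence, and the elements are shown because the 3 genes that fell beyond 2-fold each carried an ER stress response element. Windows from RefSeq (GRCm38.p6, 250 bases before to 50 after each annotated start) were searched on both strands for the ER stress response element ERSE (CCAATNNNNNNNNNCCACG), for ERSE-II (ATTGGNCCACG) and for the unfolded protein response element UPRE (TGACGTGG). Over the 32851 windows of 27025 genes, ERSE lay in 0.137% of genes and in 10 of the 31 ER genes with a window. ERSE-II lay in 0.0444% of genes and in 2 ER genes, and UPRE in 0.714% of genes and in 0 ER genes. The ER genes were chosen as the kind that ATF6 and XBP1 drive through such elements. Their shares thus depend on that choice and are not read as a result. The table held no window for *Atf6*, *Hyou1*, *Manf*, *Derl1* and *Sec61a1*. *Sec63*, which rose beyond 2-fold, and *Pdia4*, the next largest fall, each had a window without any of these elements. The sequences below are written 5′ to 3′ on the strand of the gene, with the fixed letters of the element in capitals. They are first those of *Creld2* (chr15:88819500-88819558, + strand, element on the opposite strand 107 bases before the start), *Syvn1* (chr19:6046512-6046570, + strand, 25 bases before the start) and *Herpud1* (chr8:94386357-94386407, + strand, ERSE-II, 41 bases before the start), which fell.
Creld2: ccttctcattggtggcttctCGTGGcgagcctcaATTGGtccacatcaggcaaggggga
Syvn1: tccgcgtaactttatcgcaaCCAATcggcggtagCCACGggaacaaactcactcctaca
Herpud1: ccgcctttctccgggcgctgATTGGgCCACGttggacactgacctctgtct

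The same elements also stood before the RefSeq starts of genes that rose or did not pass the test. For *Hspa5* the GENCODE gene begins further upstream, at 34771970, so its element lies inside the gene in that annotation. *Canx* (chr11:50325780-50325838, - strand, 126 bases before the start) rose, and *Hspa5* (chr2:34772020-34772048, + strand, 46 bases before the start), *Pdia6* (chr12:17266471-17266529, + strand, 79 bases before the start) and *Calr* (chr8:84847055-84847113, - strand, element on the opposite strand 143 bases before the start) did not pass the test.
Canx: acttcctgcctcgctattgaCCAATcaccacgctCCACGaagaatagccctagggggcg
Hspa5: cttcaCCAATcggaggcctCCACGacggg
Pdia6: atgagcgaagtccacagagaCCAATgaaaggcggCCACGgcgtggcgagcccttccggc
Calr: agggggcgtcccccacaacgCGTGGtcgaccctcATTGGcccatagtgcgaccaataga

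The 12 ER genes with ERSE or ERSE-II held 1 gene that rose, 3 that fell and 8 that did not pass the test, with a median log2 fold change of -0.24 and a range from -2.12 to 0.68. The median was 0.00 over the 9 carriers other than *Creld2*, *Syvn1* and *Herpud1*. Leaving out these 3 raises the median by construction, because they are the carriers that fell. The elements were shown because of the same 3 genes, so the medians with and without an element do not test a link. The genes without an element were not trimmed in this way. The 19 ER genes with a window and neither element held 4 that rose, 2 that fell and 13 that did not pass, with a median of 0.29. The remaining element carriers were *Hsp90b1*, *Dnajc3*, *Ero1lb* and *Derl3* with ERSE and *Dnajb11* with ERSE-II, and none of these 5 passed the test. Outside the 36 genes, 37 genes carried an element and 14 of them were expressed enough to be tested, of which 1 rose (*Krtcap2*, log2 fold change 0.49) and 1 fell (*Acnat2*, -0.61). A match describes letters in the window and not a bound site.

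Of the sensors and transcription factors, *Atf6* and *Ern1* rose, while *Xbp1* did not pass the test. *Atf6*, which encodes the sensor that is cleaved in the Golgi to release a transcription factor, measured 10.9, 7.79 and 12.5 FPKM in controls and 16.6, 18.8 and 20.3 FPKM in livers labelled med23Δli. Every liver labelled med23Δli lay above every control. The log2 fold change was 0.85 (SE 0.19, adjusted p = 0.0206).

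*Ern1*, the gene of the sensor IRE1α, measured 12.6, 11.1 and 15.5 FPKM in controls and 19.3, 23.3 and 17.1 FPKM in livers labelled med23Δli. The groups did not overlap, although the highest control was close to the lowest liver labelled med23Δli (log2 fold change 0.60, SE 0.18, adjusted p = 0.0464). *Ern1* passed in 7 of the 15 alternatives, with adjusted p from 0.0203 to 0.16, and *Atf6* in 12. *Xbp1*, whose product activates chaperone and degradation genes, measured 194, 194 and 119 FPKM in controls and 112, 120 and 116 FPKM in livers labelled med23Δli. Control replicate 3 lay among the livers labelled med23Δli and the first and second controls lay well above them, giving a log2 fold change of -0.50 (SE 0.20, adjusted p = 0.111). Without control replicate 3 the change of *Xbp1* was -0.74 with an adjusted p of 0.00783. Gene-level FPKM does not separate spliced from unspliced *Xbp1*.

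Within each liver, *Atf6* was 0.0565, 0.0402 and 0.105 times the *Xbp1* level in controls and 0.148, 0.156 and 0.174 times in livers labelled med23Δli. This ratio, like the others below, was picked after the values were seen and is given with no test. All 3 med23Δli ratios exceeded the 3 control ratios.

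Among the 9 chaperones and cofactors, 3 fell and 6 did not pass the test, with a median log2 fold change of -0.50. *Hspa5*, the gene of the principal ER HSP70 chaperone BiP, was the most abundant of the 36 genes in both groups on the FPKM scale. It measured 2061, 1894 and 1513 FPKM in controls and 1469, 1437 and 1644 FPKM in livers labelled med23Δli. The groups overlapped, and the log2 fold change of -0.26 did not pass (SE 0.16, 95% interval -0.63 to 0.12, adjusted p = 0.29).

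*Creld2* encodes a secreted, ER-stress-inducible protein with disulphide isomerase activity and had the largest change of the 36 genes. It measured 668, 781 and 322 FPKM in controls and 120, 107 and 159 FPKM in livers labelled med23Δli, or 590 ± 239 against 128 ± 26.8 FPKM (SD, n = 3). The lowest control was above the highest liver labelled med23Δli, and control replicate 3 lay far below the other controls. The log2 fold change was -2.12 (SE 0.33, adjusted p = 0.00652), which is a 0.23-fold level. In rank among the 36 genes *Creld2* went from 5 in controls to 18 in livers labelled med23Δli. It passed the test under each of the 15 alternatives, with log2 fold changes from -2.51 to -1.87.

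*Sdf2l1*, a partner of BiP and its J-domain cofactors, measured 347, 478 and 303 FPKM in controls and 199, 197 and 267 FPKM in livers labelled med23Δli. The livers labelled med23Δli all lay below the controls, with replicate 3 nearest to them (log2 fold change -0.75, SE 0.21, adjusted p = 0.0388). *Hyou1*, the large HSP70-like nucleotide exchange factor of BiP, measured 299, 268 and 228 FPKM in controls and 191, 182 and 186 FPKM in livers labelled med23Δli. Its med23Δli values were tightly grouped below the controls (log2 fold change -0.50, SE 0.14, adjusted p = 0.041). *Hyou1* and *Sdf2l1* each passed in 7 of the 15 alternatives.

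Within each liver *Sdf2l1* was 1.56, 2.47 and 2.06 times the level of *Dnajb11*, a J-domain cofactor of BiP, in controls and 1.59, 1.5 and 2 times in livers labelled med23Δli, so this ratio overlapped between the groups. *Hyou1* was 0.145, 0.142 and 0.151 times the *Hspa5* level in controls and 0.130, 0.126 and 0.113 times in livers labelled med23Δli, without overlap.

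*Dnajb11* and *Manf*, a secreted ER-resident survival factor, were lower in every liver labelled med23Δli than in any control without passing the test. Their log2 fold changes were -0.50 for each, with adjusted p of 0.0669 for *Dnajb11* and 0.051 for *Manf*. *Manf* passed in 6 of the 15 alternatives. *Hsp90b1*, the ER HSP90 chaperone GRP94, was at -0.22 on the log2 scale with overlapping groups. Its value was -0.01 without control replicate 1 and -0.39 without control replicate 3, and it passed in neither. The J-domain genes *Dnajb9* (0.03) and *Dnajc3* (0.13) had 95% intervals from -0.28 to 0.34 and from -0.25 to 0.50.

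Within each liver *Creld2* was 2.46, 3.04 and 1.56 times the *Manf* level in controls and 0.653, 0.685 and 0.891 times in livers labelled med23Δli. *Creld2* was thus above *Manf* in every control and below it in every liver labelled med23Δli. *Alg12*, a mannosyltransferase gene that lies next to *Creld2* in divergent orientation and was looked up after the values were seen, measured 12.8, 12.0 and 9.48 FPKM in controls and 7.30, 6.74 and 9.68 FPKM in livers labelled med23Δli. Its groups overlapped through med23Δli replicate 3 and control replicate 3 (log2 fold change -0.53, adjusted p = 0.0759). The *Alg12* window also held ERSE, and whether this is the element printed for *Creld2* was not examined.

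**Figure D2:**
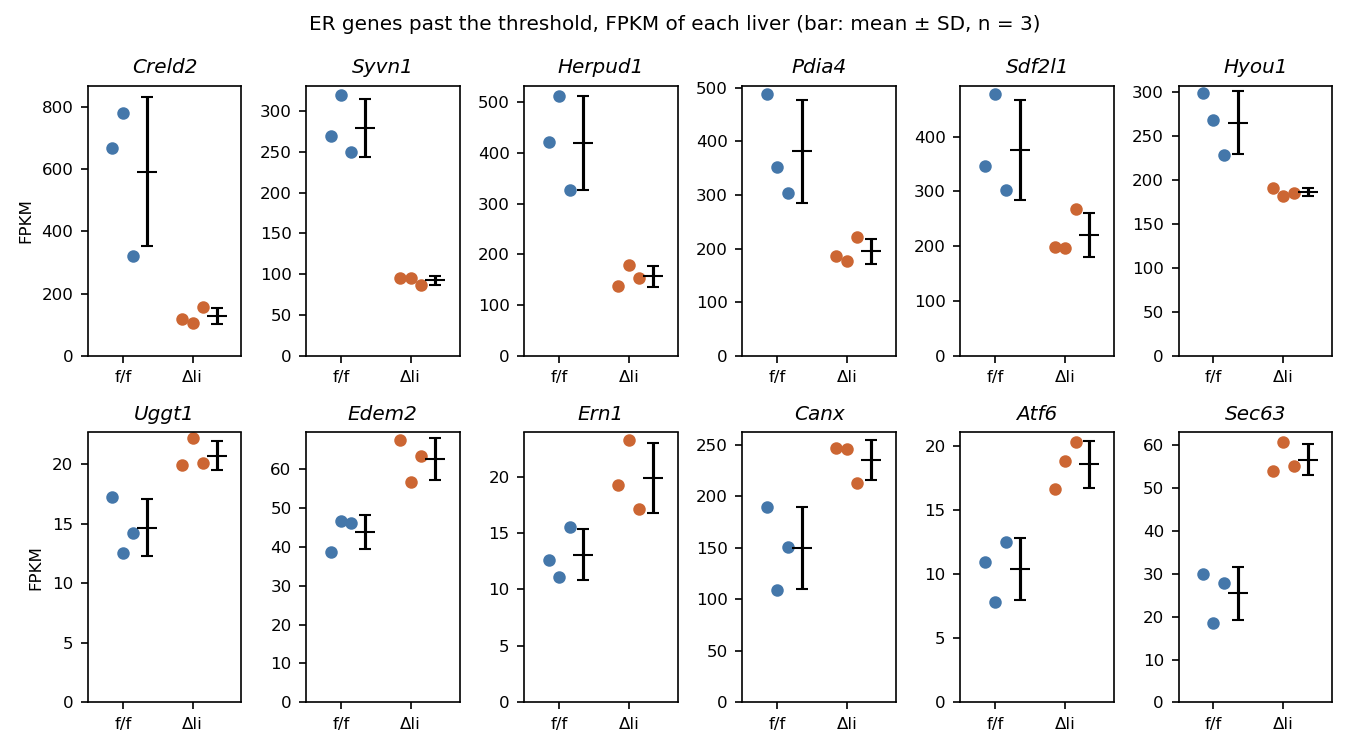
FPKM in each liver of the 12 ER genes that passed the test (blue med23f/f, orange med23Δli, n = 3 each; bars show mean ± SD and the axes start at 0), the 6 that fell above and the 6 that rose below. No group overlaps in any panel, and for each of the 6 genes that fell control replicate 3, the rightmost blue point, is the lowest control.

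Of the 6 disulphide isomerases and oxidases, *Pdia4* fell and the other 5 did not pass the test. *Pdia4*, also known as ERp72, measured 488, 353 and 304 FPKM in controls and 187, 177 and 222 FPKM in livers labelled med23Δli. The groups were separate, and the log2 fold change was -0.94 (SE 0.20, adjusted p = 0.0166). It passed in 13 of the 15 alternatives.

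None of the other isomerases passed the test, and 2 of the 6 genes were higher at an unadjusted p under 0.05 (limma). *P4hb*, the classical protein disulphide isomerase, averaged 1078 FPKM in controls and 1389 FPKM in livers labelled med23Δli with no overlap (log2 fold change 0.37, adjusted p = 0.13). *Pdia6* stood at 0.37 on the log2 scale with overlapping groups, and *Pdia3*, which acts with calnexin and calreticulin, at 0.04. The 95% interval of *Pdia6* ran from -0.02 to 0.77 and lay above that of *Pdia4*, which ran from -1.40 to -0.49, although the difference between the 2 genes was not tested. Within each liver *Pdia4* was 0.961, 1.02 and 0.816 times the *Pdia6* level in controls and 0.342, 0.364 and 0.416 times in livers labelled med23Δli. The oxidases that recharge these enzymes, *Ero1l* (0.31) and *Ero1lb* (0.60, adjusted p = 0.0607), did not pass, although *Ero1lb* was higher in every liver labelled med23Δli, between 41.4 and 41.8 FPKM, than in any control, between 20.3 and 34.4 FPKM.

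In the glycoprotein folding cycle *Canx* and *Uggt1* rose and *Calr* did not pass the test. *Canx*, the membrane-bound lectin chaperone calnexin, measured 189, 110 and 151 FPKM in controls and 248, 246 and 213 FPKM in livers labelled med23Δli. The groups did not overlap, and the adjusted p of 0.04997 was just inside the threshold (log2 fold change 0.68, SE 0.20). *Canx* passed in 6 of the 15 alternatives.

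*Uggt1*, the glucosyltransferase that returns misfolded glycoproteins to the cycle, measured 17.3, 12.5 and 14.2 FPKM in controls and 19.9, 22.2 and 20.1 FPKM in livers labelled med23Δli. All livers labelled med23Δli lay above the controls (log2 fold change 0.51, SE 0.15, adjusted p = 0.0491), and the call held in 7 of the 15 alternatives. *Calr*, the soluble lectin chaperone calreticulin and a functional counterpart of calnexin, averaged 938 ± 165 FPKM in controls and 932.5 ± 63.7 FPKM in livers labelled med23Δli (SD, n = 3). Its 95% interval, from -0.38 to 0.39 on the log2 scale, spans changes in both directions.

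ER-associated degradation held the largest falls after *Creld2*. Of its 10 genes, 1 rose, 2 fell and 7 did not pass the test. *Syvn1*, which encodes HRD1, the membrane ubiquitin ligase of the pathway, measured 269, 319 and 250 FPKM in controls and 95.3, 95.7 and 86.3 FPKM in livers labelled med23Δli. The separation was wide and the livers labelled med23Δli differed little among themselves. The log2 fold change was -1.59 (SE 0.14, adjusted p = 0.0013), a 0.333-fold level, and ranged from -1.71 to -1.49 over the alternatives, all of which it passed. Its exons overlap those of *Mrpl49* on the other strand in the GENCODE annotation, and the strandedness of the counting was not given in the sources used here.

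*Herpud1*, a membrane protein that recruits partners to the HRD1 complex, measured 420, 512.5 and 327 FPKM in controls and 137, 179 and 154 FPKM in livers labelled med23Δli. The groups were again widely separate. The log2 fold change was -1.41 (SE 0.19, adjusted p = 0.0046), and the gene passed all 15 alternatives with values from -1.57 to -1.25.

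*Sel1l* and *Os9*, of the same ligase complex, did not pass the test. *Sel1l*, the adaptor that pairs with HRD1, measured 52.2, 45.8 and 43.3 FPKM in controls and 39.4, 46.4 and 43.6 FPKM in livers labelled med23Δli. The groups overlapped (log2 fold change -0.13, SE 0.13, 95% interval -0.43 to 0.18), and the interval lay above that of *Syvn1*, which ran from -1.91 to -1.27 (the difference was not tested). Within each liver *Syvn1* was 5.16, 6.97 and 5.76 times the *Sel1l* level in controls and 2.42, 2.06 and 1.98 times in livers labelled med23Δli. The lectin gene *Os9*, whose product delivers glycoproteins to the ligase, had a log2 fold change of -0.04.

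*Derl1*, *Derl2* and *Derl3* encode derlins, which help form the channel out of the ER. *Derl1* was higher in every liver labelled med23Δli than in any control (log2 fold change 0.37, adjusted p = 0.0795), *Derl2* was at 0.29 and *Derl3* at -0.43 with overlapping groups. *Herpud1* was 4.57, 5.69 and 3.22 times the *Derl1* level in the 3 control livers and 1.09, 1.36 and 1.40 times in the 3 livers labelled med23Δli.

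The EDEM mannosidases, which mark glycoproteins for degradation, were all at positive values, but *Edem2* was the sole member of the 3 to pass. *Edem2* measured 38.7, 46.6 and 45.9 FPKM in controls and 67.4, 56.6 and 63.3 FPKM in livers labelled med23Δli. The groups did not overlap (log2 fold change 0.51, SE 0.14, adjusted p = 0.0353), and the call held in 9 of the 15 alternatives. *Edem1* (0.33, adjusted p = 0.0927) had no overlap between groups and *Edem3* (0.24) overlapped.

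**Figure D3:**
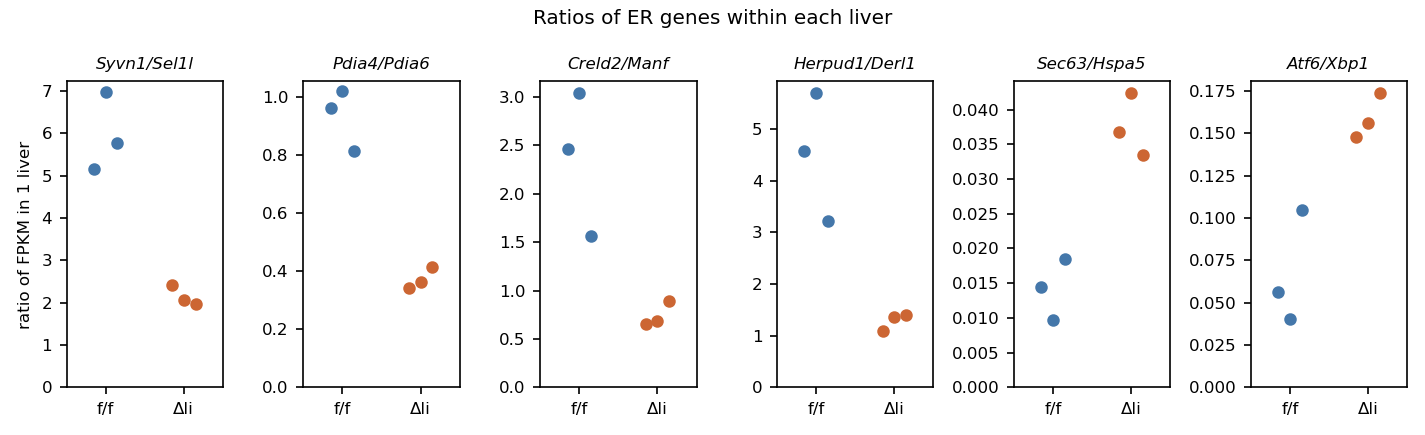
Ratio of the FPKM of paired ER genes within each liver (blue med23f/f, orange med23Δli, 3 livers each, axes from 0), for pairs chosen after the values were seen. The *Syvn1*/*Sel1l* ratio goes from 5.16 to 6.97 in controls to 1.98 to 2.42 in livers labelled med23Δli and the groups overlap in none of the 6 panels, while the *Sdf2l1*/*Dnajb11* ratio, not drawn, overlapped.

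Of the 5 translocon genes, 1 rose and 4 did not pass the test, with a median log2 fold change of 0.48. *Sec63*, the J-domain protein that brings BiP to the translocon, measured 30.0, 18.5 and 28.0 FPKM in controls and 54.0, 60.9 and 55.2 FPKM in livers labelled med23Δli. The lowest liver labelled med23Δli was well above the highest control, and control replicate 2 was the lowest of all. The log2 fold change was 1.18 (SE 0.19, adjusted p = 0.0079), a 2.27-fold level. *Sec63* passed all 15 alternatives with values from 0.96 to 1.31, and was under 2-fold without control replicate 2. Part of its exons overlap the non-coding gene *Gm26860* on the other strand.

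The channel subunits *Sec61a1* (log2 fold change 0.27) and *Sec61b* (0.55, adjusted p = 0.0638) and the translocon-associated *Ssr3* (0.48, adjusted p = 0.0552) were higher in every liver labelled med23Δli than in any control without passing, and *Ssr1* (0.22) overlapped. Summed over the 5 translocon genes the level was 700.5 to 791 FPKM in controls and 1005 to 1099 FPKM in livers labelled med23Δli. The chaperone sum went the other way, from 3750 to 5460 FPKM in controls to 3273 to 3732 FPKM. So did that of ER-associated degradation, from 952.6 to 1215 FPKM in controls to 651.9 to 727.3 FPKM. The sums of the remaining roles overlapped. Within each liver *Sec63* was 0.0145, 0.00976 and 0.0185 times the *Hspa5* level in controls and 0.0368, 0.0424 and 0.0335 times in livers labelled med23Δli, so no liver of a group reached the other group.

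**Figure D4:**
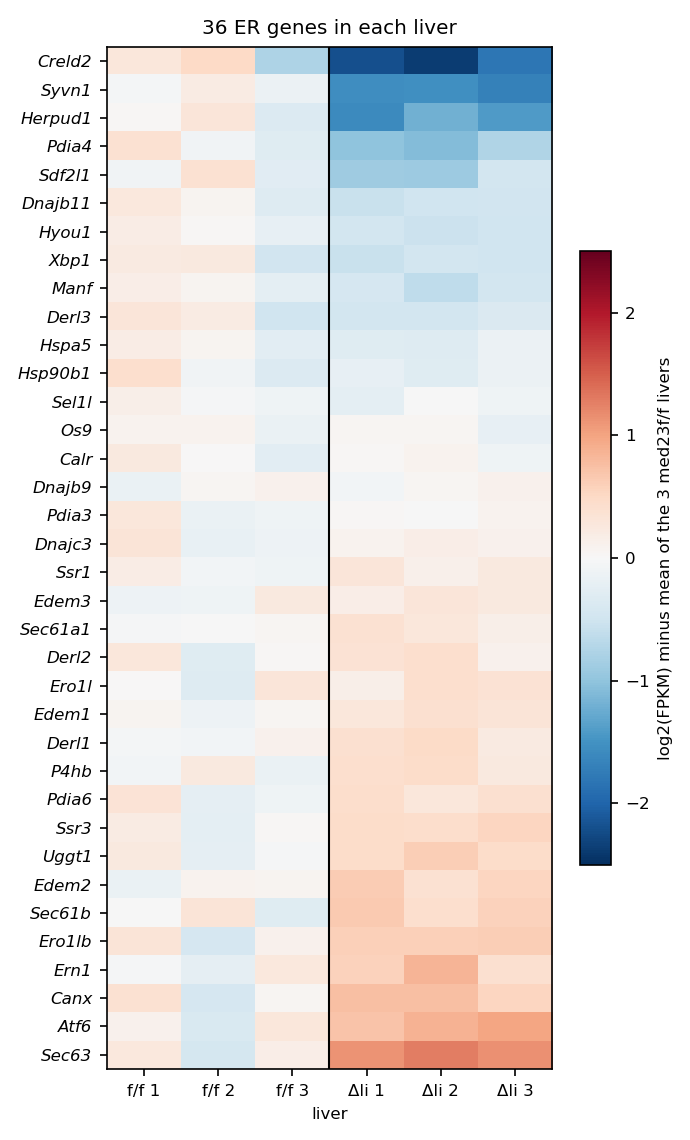
Level of each of the 36 ER genes in each liver, as log2(FPKM) minus the mean of the 3 med23f/f livers, ordered by the difference between groups (f/f, med23f/f; Δli, med23Δli). *Creld2*, *Syvn1* and *Herpud1* are low in all 3 livers labelled med23Δli and *Sec63*, *Atf6* and *Canx* are high in all 3, while the control column f/f 3 is below its group for most of the genes at the top.

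The summed level of the 36 ER genes was 11510, 10750 and 8612 FPKM in controls and 9244, 9103 and 9282 FPKM in livers labelled med23Δli. Control replicate 3 had the lowest sum and the first and second controls the highest. This library was the lowest control for all 6 genes that fell and for 18 of the 36 genes. Without it 10 ER genes fell and 4 rose, *Xbp1*, *Dnajb11*, *Manf* and *Derl3* being added to the genes that fell, and over all genes the counts moved too, from 1384 higher and 1133 lower to 1750 and 1429. Without med23Δli replicate 2, the library with adipocyte transcripts, *Creld2*, *Herpud1* and *Syvn1* fell, *Sec63* rose and no other ER gene passed, while over all genes 487 rose and 442 fell. The same 4 genes were those left without med23Δli replicate 1, and without replicate 3 *Pdia4* passed as well, beside 401 higher and 349 lower over all genes without replicate 1 and 578 higher and 412 lower without replicate 3.

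Beyond the 36 genes, 141 other genes of ER function were tested, of which 20 rose, 8 fell and 113 did not pass, with a median log2 fold change of 0.22. Beside the 11.6% higher and 9.48% lower of all genes tested, neither these counts nor those of the lists below are read as particular to ER genes. With quantile normalization the split was 17 higher and 12 lower, beside 1301 higher and 1351 lower over all genes. Of 8 other sensors and activating proteases, *Mbtps2* (0.80) and *Mbtps1* (0.43), the proteases that cleave ATF6, rose and *Creb3l3* (-0.71), a hepatocyte transcription factor activated by the same cleavage, fell from 203 to 123 FPKM. The adjusted p was 0.0354 for *Mbtps2*, 0.0369 for *Mbtps1* and 0.0402 for *Creb3l3*.

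Of the 12 genes of the PERK arm and its targets, 3 rose and 9 did not pass. *Nupr1*, a stress-responsive chromatin protein, measured 57.9, 31.7 and 60.3 FPKM in controls and 411, 527 and 481 FPKM in livers labelled med23Δli. It was far above the controls in every liver labelled med23Δli (log2 fold change 3.29, SE 0.25, adjusted p = 0.000771). *Ppp1r15a*, which encodes the phosphatase subunit GADD34, rose by 1.23 on the log2 scale (adjusted p = 0.0254) and *Asns*, asparagine synthetase, by 1.21 (adjusted p = 0.00445). *Atf4*, the transcription factor of this arm, averaged 151 FPKM in both groups with a log2 fold change of 0.00 (95% interval -0.29 to 0.30), and *Ddit3*, the gene of CHOP, was at 0.85 without passing (adjusted p = 0.106).

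Other folding and glycosylation genes also split. Of 27 other chaperones and folding enzymes, 3 rose, among them *Serp1* (0.85) and *Ppib* (0.62), and 2 fell, *Fkbp14* (-0.87) and *Txndc11* (-0.84), with adjusted p between 0.00648 and 0.0171 for these 4. Of 17 genes of N-glycosylation and glucose trimming, 3 rose, *Gfpt1* (0.92), the rate-limiting enzyme of the hexosamine pathway, *Dpagt1* (0.71) and *Stt3a* (0.48), and 1 fell, the glucosidase gene *Mogs* (-0.42). Of 19 other genes of the translocon, signal peptidase and signal recognition particle, 3 rose, *Srpr* (0.76), *Tram1* (0.63) and *Sec11c* (0.54), and 16 did not pass.

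Of 19 other genes of ER-associated degradation, *Man1b1* (0.96), *Erlec1* (0.77) and *Ubxn8* (0.45) rose and 16 did not pass. Of 28 genes of transport between the ER and the Golgi, 1 rose, the retrieval receptor *Kdelr3* (1.29, from 1.53 to 3.82 FPKM), and 3 fell, the coat genes *Sec23b* (-0.81), *Sec24c* (-0.55) and *Sec16a* (-0.44). Of 11 partners of IRE1 and of ER stress and death, *Wfs1* (0.86) and *Tmbim6* (0.59) rose and *Traf2* (-0.54) fell.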

How the data were processed

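Whole-liver RNA from 6 mice was sequenced, and the authors aligned reads to mm10 with TopHat and ran Cuffdiff (names from the submitters' processing notes, versions not given in the sources used here). The deposited table holds FPKM per library, which the authors computed, for 24346 genes, with 0 columns left unmapped. The authors' group values, fold changes, test statistics, p-values and q-values were not used. FPKM carry no read counts, so the depth of each library is unknown here and error is the spread between livers.

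Genes whose mean over the 6 livers reached 0.5 FPKM were compared as log2(FPKM + 0.1) with limma 3.58.1 in R 4.3.3 (eBayes with trend, no block), with Benjamini-Hochberg adjustment over 11956 genes. Fold changes are on that scale and understate low genes. The test was checked on simulated data with independent noise for each gene, which cannot show how effects shared by a whole library move the calls. The ER genes and the lists were chosen with earlier results of these data known. Values in every liver are given for ER genes with an adjusted p under 0.05 and no overlap, and for *Hspa5*, *Xbp1*, *Atf6* and *Ern1*. Those of *Sel1l* are also given and were picked after they were seen. Of each other ER list, up to 4 genes with the largest change among those called are named. Genes named besides were picked after their values were seen. Positions are from GENCODE M21 and promoter windows from RefSeq (GRCm38.p6), searched in Python 3.11.15. Alternatives, 15 in number, changed the pseudocount (1 or 0.01), the filter (none or 1 FPKM), the scaling (median centring or quantile normalization) and eBayes (without trend, or robust), added a replicate block, or left out each library in turn.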

Additional observations from a re-analysis of the deposited data

How the results depend on the processing

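*Creld2*, *Herpud1*, *Syvn1* and *Sec63* kept their direction and passed the test under all 15 alternatives. The 6 ER genes that rose became 3 with no filter, 3 with eBayes without trend and 2 with the replicate block, and 1 to 6 when a library was left out. The 6 that fell became 3 to 10 when a library was left out, and those rising beyond 2-fold 0 to 1. Among the other ER genes, the 20 that rose became 13 with the replicate block and 6 to 22 without a library, and the 8 that fell became 5 with eBayes without trend, 3 with the replicate block and 2 to 9 without a library. Over all genes the replicate block left 809 higher and 614 lower. Livers with the same replicate number did not deviate together (correlations -0.02, -0.05 and -0.12), so the number is not read as a pairing. Among the ER genes and *Med23*, these signs changed. With quantile normalization *Dnajb9* was at -0.092, *Dnajc3* at -0.001, *Pdia3* at -0.089 and *Calr* at -0.15, and with median centring *Calr* was at -0.025. Without a library the ranges were -0.053 to 0.086 for *Dnajb9*, -0.044 to 0.18 for *Pdia3*, -0.13 to 0.13 for *Calr*, -0.12 to 0.044 for *Os9* and -0.22 to 0.017 for *Med23*. The causes were not tested. FPKM give no counts, so what depth limits could not be judged.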
